A study of Mus musculus with 2 samples.

Results

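The cornified envelope is the crosslinked protein shell that replaces the plasma membrane of a keratinocyte as it dies to form the outer layer of skin and of keratinised oral mucosa. Scaffold proteins rich in proline, glycine or cysteine are laid down under the membrane, transglutaminases join them through their glutamine and lysine side chains, lipids are attached to the outside, and modified desmosomes hold the flattened cells together. Most of the scaffold genes lie side by side in the epidermal differentiation complex, which in the mouse is on chromosome 3.

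The genes described here are those with a probe set of their own whose symbol starts with Sprr or Lce, together with Lor, Flg2, Ivl, Rptn, Hrnr, Crct1, Tgm1, Tgm3, Tgm5, Cnfn, Cdsn, Aloxe3 and Alox12b. The rule goes by gene name, was set with earlier results of these arrays known, and covers 45 of the 19938 genes that have such a probe set. Of the other genes the naming rule covers, Dsg1a, Lce3d, Sprr2a1, Sprr2a2 and Sprr2a3 share probe sets with relatives. Flg, Dsc1, Lce1m and Sprr2c-ps were not analysed here, because the annotation used names no probe set, own or shared, under these symbols. The values come from 2 Affymetrix arrays of fetal mandible at E18.5, shortly before birth. The first array holds RNA of a mandible sample from BALB/c mice null for Myf5 and for MyoD, the factors that commit cells to skeletal muscle. The second holds RNA of a wild-type BALB/c mandible sample. How many fetuses each sample pools, if any, is not recorded in the labels used here. The study is concerned with the role of skeletal muscle in jaw development.

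With 1 array per genotype there is no replicate check, no test between genotypes and no p-value. Values are log2 signals as deposited, and a difference is the double knockout minus the wild type. A gene was called measured when its signal was above the floor on at least 1 array. The floor is the median over probe sets with an annotated gene, 6.19 on the double-knockout array and 6.18 on the wild-type array, and a lower signal was raised to it. As a measure of error, the differences given by the 2 brightest probe sets of a gene had an SD of 0.23 over 532 other genes, a spread that leaves out animals and hybridisations. None of the 45 genes had more than 1 probe set. Across all 10393 measured genes the median difference was 0.10. The targeted genes had signals of 4.95 (Myf5) and 6.49 (Myod1) on the double-knockout array, against 6.31 and 7.14 on the wild-type array. Myod1 was thus above the floor in the double knockout, with a difference of -0.66. Myf5 was only slightly above the floor in the wild type, so its floored difference was -0.13. The loss of either gene is not read from these signals. The 8 skeletal muscle markers had signals of 3.85 to 6.33 in the double knockout, where 7 were below the floor, against 10.84 to 12.47 in the wild type. The cardiac and fetal muscle actin Actc1 was at least 77.8-fold lower and the skeletal actin Acta1 at least 64.5-fold lower. Signals of different probe sets do not rank genes by expression, and in whole mandible fewer cells of a type and less RNA per cell cannot be told apart.

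Genes of the cornified envelope were mostly lower in the double-knockout mandible, by amounts that stayed under 2-fold for all measured members except Sprr1a. Of the 45 genes, 21 were measured and 24 lay below the floor on both arrays. Among the 21, 17 (81.0%) were lower in the double knockout, against 32.2% of all measured genes. A further 3 (Sprr1b, Tgm3 and Tgm1) were higher by at most 0.10, against 66.9% of all measured genes, and Aloxe3 had no direction because its wild-type signal only touched the floor. Lce3c and Aloxe3 were above the floor only in the wild type, so a count that holds them cannot speak for a direction. Among the 19 members above the floor on both arrays 16 (84.2%) were lower and 3 higher in the double knockout, against 30.7% lower and 68.4% higher of the 9468 genes above it on both. At least 1.5-fold lower were 6 of the 21 (Sprr1a, Lor, Sprr3, Cnfn, Cdsn and Lce1c), where the background was 5.11%. At least 2-fold lower was 1, with a background of 2.73%, and 0 were at least 2-fold higher, with a background of 0.510%. At least 1.5-fold higher were 0 of the 21 as well, with a background of 3.07%. The median difference of the 21 was -0.33. After centring the differences of all measured genes on their median it was -0.42 with 19 lower, where 49.9% of all measured genes were lower, and after quantile normalisation -0.35 with 19 lower, where 36.7% were. Beyond 2 SDs of the probe set spread (0.45) lay 8 members, all of them lower: the 6 just named, Hrnr and Alox12b. On that measure 6.68% of all measured genes were lower. The spread was taken over all levels above the floor, and Cdsn (6.38) and Alox12b (6.59) were close to the floor in the double knockout.

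**Figure D1:**
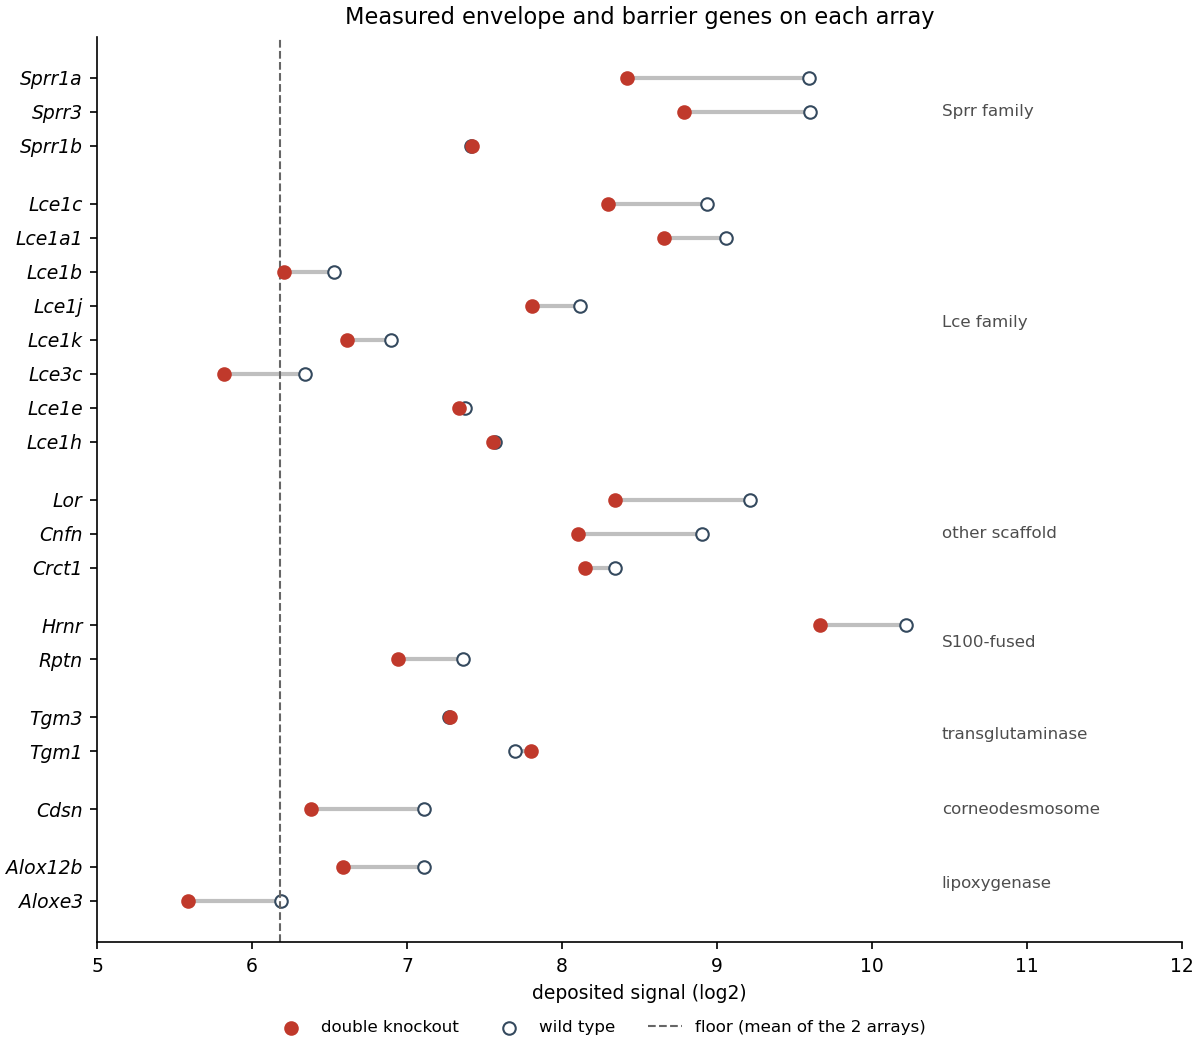
Deposited log2 signal (horizontal axis) of the 21 measured genes (rows, grouped by role), with a filled point for the double-knockout array, an open point for the wild-type array and a dashed line at the floor. The filled point lies left of the open one in most rows, by 1.18 for Sprr1a, while the points of Sprr1b, Tgm3, Lce1h and Lce1e nearly coincide.

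The small proline-rich proteins encoded by the Sprr genes act as flexible bridges between other envelope proteins. Sprr1a had a signal of 8.42 in the double knockout and 9.59 in the wild type, a difference of -1.18 or 2.26-fold lower. Only 242 of the 10393 measured genes had a larger decrease. Sprr3, a form abundant in oral and esophageal epithelium, had 8.78 in the double knockout and 9.60 in the wild type (1.76-fold lower). Sprr1b, the closest relative of Sprr1a on the array, had 7.42 in the double knockout and 7.41 in the wild type, a difference of 0.00 (-0.09 after centring on the median of all measured genes). These 3 genes are neighbours on the chromosome, and their differences spanned the whole range seen among measured scaffold genes. The other 10 Sprr genes with a probe set, 9 of the Sprr2 group and Sprr4, were below the floor on both arrays, with signals of 2.71 to 5.44 in the double knockout and 2.79 to 5.34 in the wild type. Sprr2b and Sprr2g had the very same deposited value on both arrays, as did 1626 of the 35557 probe sets.

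Sprr1a, Sprr3 and Lor had the largest differences, and Sprr1b had almost none beside them. Sprr2d is from the Sprr2 group, whose own probe sets were below the floor, and does not stand for other genes there. The upstream sequences of these 5 genes are shown. Each is the stretch of 250 bases before the RefSeq start in build GRCm38.p6, written 5′ to 3′ on the gene's strand. Capitals mark a TATA box (TATAAA), an AP-1 motif (TGANTCA) or an octamer (ATGCAAAT), each searched on both strands, and no marked matches overlap. Sprr1a lies at chr3:92485882-92486131, Sprr1b at chr3:92438780-92439029, Sprr3 at chr3:92458721-92458970 and Lor at chr3:92083143-92083392, all on the minus strand, and Sprr2d at chr3:92338890-92339139 on the plus strand.
Sprr1a: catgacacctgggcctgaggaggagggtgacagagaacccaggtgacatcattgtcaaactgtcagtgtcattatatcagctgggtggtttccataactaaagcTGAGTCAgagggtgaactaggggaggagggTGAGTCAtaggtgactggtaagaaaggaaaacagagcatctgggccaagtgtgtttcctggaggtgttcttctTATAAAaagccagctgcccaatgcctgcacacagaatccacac
Sprr1b: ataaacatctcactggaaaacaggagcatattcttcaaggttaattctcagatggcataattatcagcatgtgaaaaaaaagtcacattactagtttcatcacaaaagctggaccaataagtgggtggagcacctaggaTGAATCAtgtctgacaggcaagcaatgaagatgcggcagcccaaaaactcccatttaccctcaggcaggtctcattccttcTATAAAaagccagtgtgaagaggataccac
Sprr3: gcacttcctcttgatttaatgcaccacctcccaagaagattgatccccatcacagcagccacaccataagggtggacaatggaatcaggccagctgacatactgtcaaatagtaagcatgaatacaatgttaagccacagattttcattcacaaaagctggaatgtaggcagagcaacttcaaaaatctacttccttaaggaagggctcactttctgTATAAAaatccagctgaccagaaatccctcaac
Lor: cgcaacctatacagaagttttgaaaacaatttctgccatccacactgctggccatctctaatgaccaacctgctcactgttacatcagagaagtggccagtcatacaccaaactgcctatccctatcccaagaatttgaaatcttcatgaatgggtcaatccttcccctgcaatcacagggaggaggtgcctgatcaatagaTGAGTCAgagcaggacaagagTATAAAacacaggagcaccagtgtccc
Sprr2d: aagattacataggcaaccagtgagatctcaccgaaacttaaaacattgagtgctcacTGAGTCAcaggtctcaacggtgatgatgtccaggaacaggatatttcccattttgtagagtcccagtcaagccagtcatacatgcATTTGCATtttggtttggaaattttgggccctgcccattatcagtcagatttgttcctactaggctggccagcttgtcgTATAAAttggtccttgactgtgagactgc

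All 5 stretches held 1 TATA box, which began 43 bases before the start in Sprr1a, 30 in Sprr1b, 33 in Sprr3, 27 in Lor and 29 in Sprr2d. Sprr1a held 2 AP-1 motifs, at 146 and 116 bases before the start, and Sprr1b held 1, at 111 bases. Lor held 1 at 48 bases and Sprr2d 1 at 193 bases, whereas the letters were not found in the Sprr3 window. In a global alignment the Sprr1a and Sprr1b stretches had the same base in 142 of 272 columns (52.2%), and those of Sprr1a and Sprr3 in 139 of 282 (49.3%). The other pairs among the 5 stretches had 43.5% to 48.9%, so no special likeness is read from these values. Upstream sequences were matched for 40 of the 45 genes. The TATA box was found in 18 of the 40, against 12.4% of 32851 promoters, and the AP-1 motif in 13 of the 40, against 6.75%. Most of these were Sprr genes: of 11 matched, 10 held the TATA box and 9 the AP-1 motif. Of the 18 Lce genes matched, 3 held the TATA box and 0 the AP-1 motif. Among the 19 measured genes matched, the counts were 7 and 4 in that order. Members are counted per gene, with a match in any of its promoters, whereas the background is counted per promoter. The octamer was found in 7 of the 40, against 1.601% of promoters. These were the 7 Sprr2 genes matched (Sprr2b, Sprr2d, Sprr2e, Sprr2f, Sprr2h, Sprr2i and Sprr2k), which also held both other motifs. Their own probe sets were all below the floor. The 3 Sprr2a genes on shared probe sets held none of these motifs. A probe set naming them and Sprr2b was above the floor, at 6.53 in the double knockout and 6.88 in the wild type. The octamer was found in 0 of the 19 measured genes matched, and in 0 of the 18 Lce genes matched, measured or not. Whether the motif bears on the signals was not tested. CCAAT, searched in the same way, was found in 12 of the 40, against 33.8% of promoters. Gene copies can share upstream sequence, so these counts are not taken as independent. A match is a description of letters, not of a bound site.

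Loricrin (Lor), the glycine-rich protein that makes up much of the mature envelope of skin, had a signal of 8.34 in the double knockout and 9.22 in the wild type, 1.83-fold lower. Cornifelin (Cnfn), another envelope component, had 8.10 in the double knockout and 8.90 in the wild type, 1.74-fold lower. Crct1, a small cysteine-rich protein of the same gene complex, had 8.15 in the double knockout and 8.34 in the wild type, a difference of -0.19 that is smaller than the probe set spread. Involucrin (Ivl), a scaffold laid down early in envelope assembly, was below the floor on both arrays, at 5.07 in the double knockout and 5.48 in the wild type. Among scaffolds outside the Lce family the largest differences were those of Sprr1a, Lor, Sprr3 and Cnfn, and the probe sets of these 4 genes were well above the floor on both arrays.

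The late cornified envelope (Lce) genes code for cysteine-rich proteins that are added toward the end of envelope assembly. The 7 members above the floor on both arrays were lower in the double knockout, with a median difference of -0.31, against 30.7% lower of all genes above it on both. Lce1c had 8.29 in the double knockout and 8.94 in the wild type (1.56-fold lower). Lce1a1 had 8.66 in the double knockout and 9.06 in the wild type (1.32-fold lower). Lce1b, Lce1j and Lce1k had 6.20, 7.81 and 6.61 in the double knockout and 6.53, 8.12 and 6.89 in the wild type, differences of -0.33, -0.31 and -0.28, with Lce1b only just above the floor in the double knockout. Lce1e (7.34 in the double knockout, 7.37 in the wild type) and Lce1h (7.56 and 7.57 in the same order) differed by -0.04 and -0.01. Lce3c was below the floor in the double knockout (5.82) and slightly above it in the wild type (6.34), at least 1.11-fold lower. The other 11 Lce genes were below the floor on both arrays, at 2.87 to 5.65 in the double knockout and 3.01 to 6.03 in the wild type. Nearest to the floor among them was Lce6a, with 5.65 in the double knockout and 6.03 in the wild type. The Lce genes are close copies of one another, so how far a probe set reads its neighbours' transcripts was not tested.

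S100-fused proteins are long repeat proteins of the granular layer that bundle keratin or join the envelope. Hornerin (Hrnr) had a signal of 9.66 in the double knockout and 10.22 in the wild type (1.48-fold lower). Repetin (Rptn), which is found in tongue papillae and epidermis, had 6.94 in the double knockout and 7.36 in the wild type (1.33-fold lower). Filaggrin-2 (Flg2) was below the floor on both arrays, at 4.44 in the double knockout and 4.91 in the wild type.

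The measured enzymes that crosslink these scaffolds differed little between the arrays. Transglutaminase 1 (Tgm1), the membrane-bound enzyme of the envelope, had 7.80 in the double knockout and 7.70 in the wild type, a difference of 0.10, close to the median of all measured genes. Transglutaminase 3 (Tgm3) had 7.28 in the double knockout and 7.27 in the wild type, a difference of 0.01. Both lie within the probe set spread, and after centring on the median of all measured genes Tgm3 was lower (1 of the 2 lower, 1 higher). Transglutaminase 5 (Tgm5) was below the floor on both arrays, with 5.67 in the double knockout and 5.30 in the wild type.

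Corneodesmosin (Cdsn), the adhesive protein of the modified desmosomes between cornified cells, had 6.38 in the double knockout and 7.11 in the wild type. That is 1.66-fold lower, and the double-knockout signal was only slightly above the floor. A probe set shared by Dsg1a, Dsg1b and Dsg1c, the desmoglein-1 copies that corneodesmosin accompanies, had 8.68 in the double knockout and 8.42 in the wild type, a difference in the other direction (0.26). Alox12b and Aloxe3 are the paired lipoxygenases that oxidise the linoleate of skin ceramides so that the lipid envelope can be attached. Alox12b had 6.59 in the double knockout, not far above the floor, and 7.11 in the wild type (1.44-fold lower). Aloxe3 had a deposited 5.58 in the double knockout, below the floor, and 6.19 in the wild type, which was 0.01 above it, so that no difference could be measured.

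**Figure D2:**
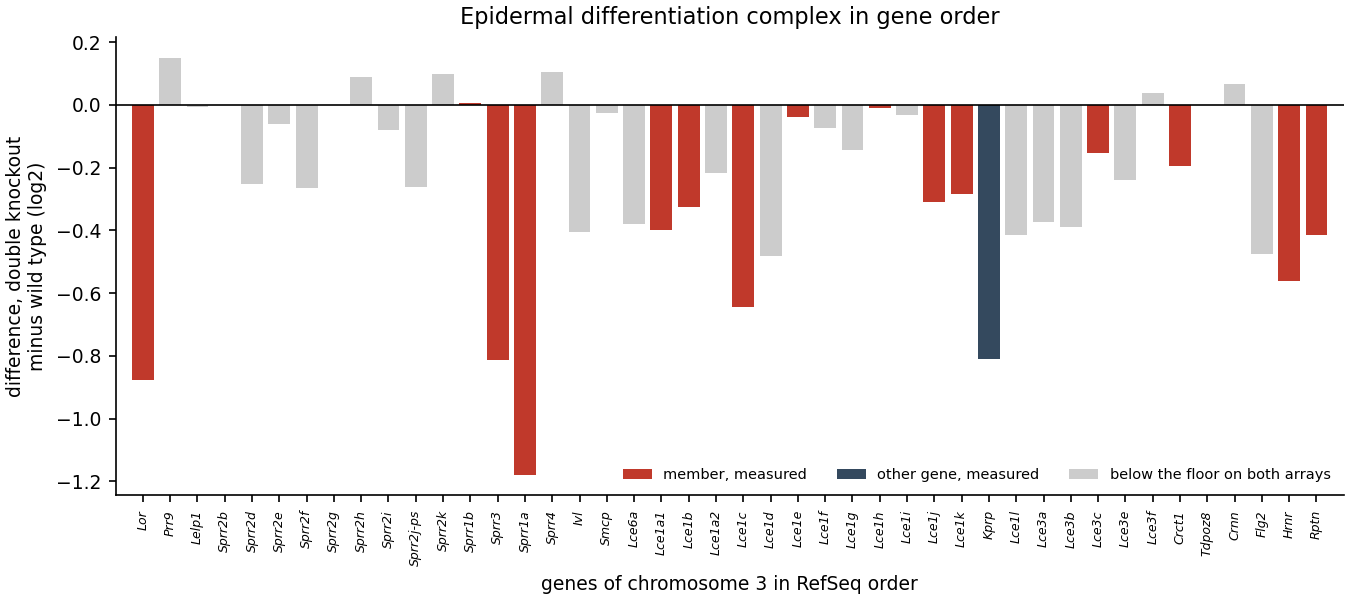
Difference (log2, double knockout minus wild type) of the 44 genes of chromosome 3 from Lor to Rptn that have a probe set of their own, in RefSeq order; red bars are the 15 measured members, the blue bar is Kprp, and grey bars are deposited differences of genes below the floor on both arrays. Of the 16 measured genes 15 lie below 0, from -1.18 for Sprr1a to -0.01 for Lce1h.

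Position in the gene complex was set against the differences. On chromosome 3 there were 38 of the 45 genes, all between Lor and Rptn, and 15 of these were measured. Of those 15, 14 were lower in the double knockout, with a median difference of -0.33, against 32.2% lower of all measured genes (13 of the 14 above the floor on both arrays, against 30.7%). The 1 other measured gene in this stretch was Kprp, a keratinocyte proline-rich protein, with 6.56 in the double knockout and 7.37 in the wild type (1.75-fold lower). Of the 6 measured members outside chromosome 3, 3 were lower (Cnfn, Cdsn and Alox12b), 2 higher (Tgm1 and Tgm3) and Aloxe3 had no direction. Some measured genes differed from the next measured gene in the complex, as Sprr1b (0.00) did from Sprr3 (-0.81) and Lce1e (-0.04) from Lce1c (-0.64). Others were close to it, as Lce1e was to Lce1h (-0.01) and Lce1j (-0.31) to Lce1k (-0.28).

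Measured members were then set against those near background. The brighter 11 of the 21 measured members had a median difference of -0.56 and the dimmer 10 a median of -0.22. With deposited differences the dimmer 10 had a median of -0.37 and the brighter 11 again -0.56, so the floor, which moves Lce3c and Aloxe3 toward 0, sets part of that gap. Over the 21, Spearman's rho between mean signal and difference was -0.50 and Pearson's r was -0.55 (-0.31 and -0.34 with deposited differences), a description across genes that share the same 2 arrays. The deposited values of the 24 members below the floor were lower in the double knockout in 17, higher in 5 and equal in 2, with a median of -0.18. Over all 9545 genes below the floor 42.1% were lower in the double knockout and the median was 0.00. By family, 10 of the 11 Lce genes below the floor had the lower value in the double knockout, against 5 of the 10 Sprr genes. The largest of these differences were those of Lce1d (-0.48) and Flg2 (-0.47) on the lower side and Tgm5 (0.37) on the higher side. Such values carry no usable fold, since the low end of an array records mostly background.

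**Figure D3:**
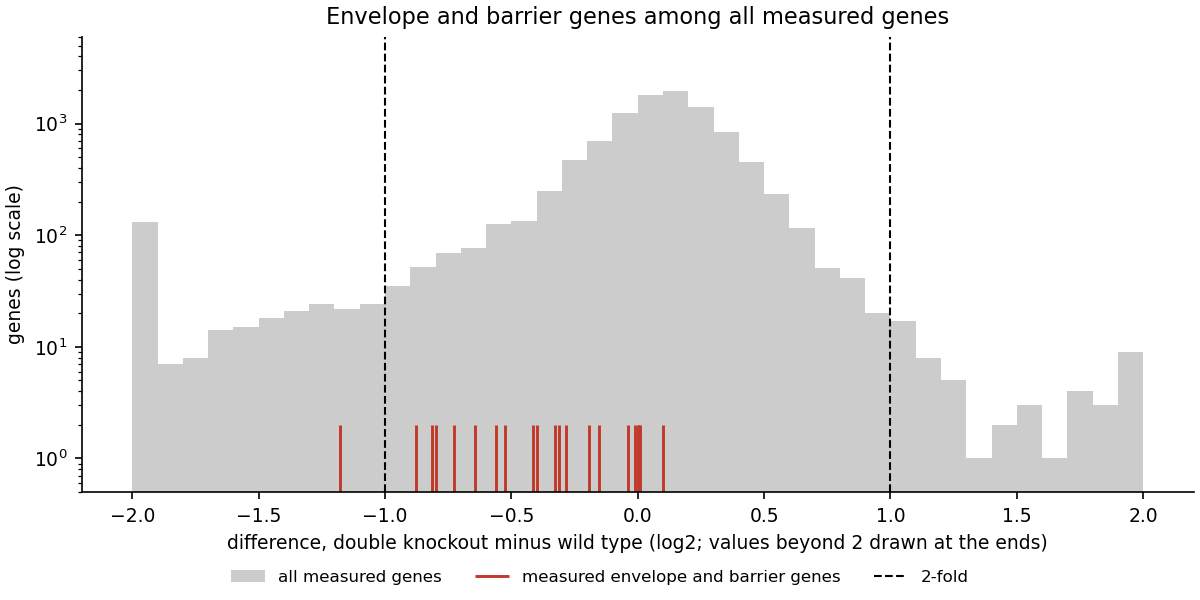
Number of measured genes (vertical axis, log scale) in bins of the log2 difference between double knockout and wild type, in grey, with the 21 measured envelope and barrier genes as red ticks and dashed lines at 2-fold. The ticks run from -1.18 to 0.10, and all but the highest, Tgm1, lie left of the median of all measured genes.

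Other layers of the epithelium were compared through marker lists, counted among measured genes of which 66.9% were higher in the double knockout. All 7 markers of basal keratinocytes, the dividing layer from which envelope-forming cells arise, were higher in the double knockout, by 0.11 to 0.49, with a median of 0.35 (0.25 after centring on the median of all measured genes). The basal master regulator Trp63 had 9.09 in the double knockout and 8.59 in the wild type, the hemidesmosome integrin Itgb4 had 9.20 and 8.70 in that order, and the basal keratin Krt5 had 11.45 and 11.34. All 6 measured markers of suprabasal epidermis were lower, with a median of -0.39. Krtdap, a secreted protein of differentiating keratinocytes, had 7.61 in the double knockout and 8.06 in the wild type, and the calmodulin-like Calml3 had 6.60 and 7.03 in that order. The main suprabasal keratin Krt1, at 10.38 in the double knockout and 10.40 in the wild type, differed by only -0.02. Of 5 measured oral suprabasal markers 3 were lower and 2 higher (4 and 1 after that centring). The mucosal keratin Krt4 was 1.76-fold lower, with 9.50 in the double knockout and 10.31 in the wild type, and its partner Krt13 had 10.52 and 10.65 in that order. Krt17 differed by 0.33, Krt6a by 0.04 and Mal by -0.21.

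**Figure D4:**
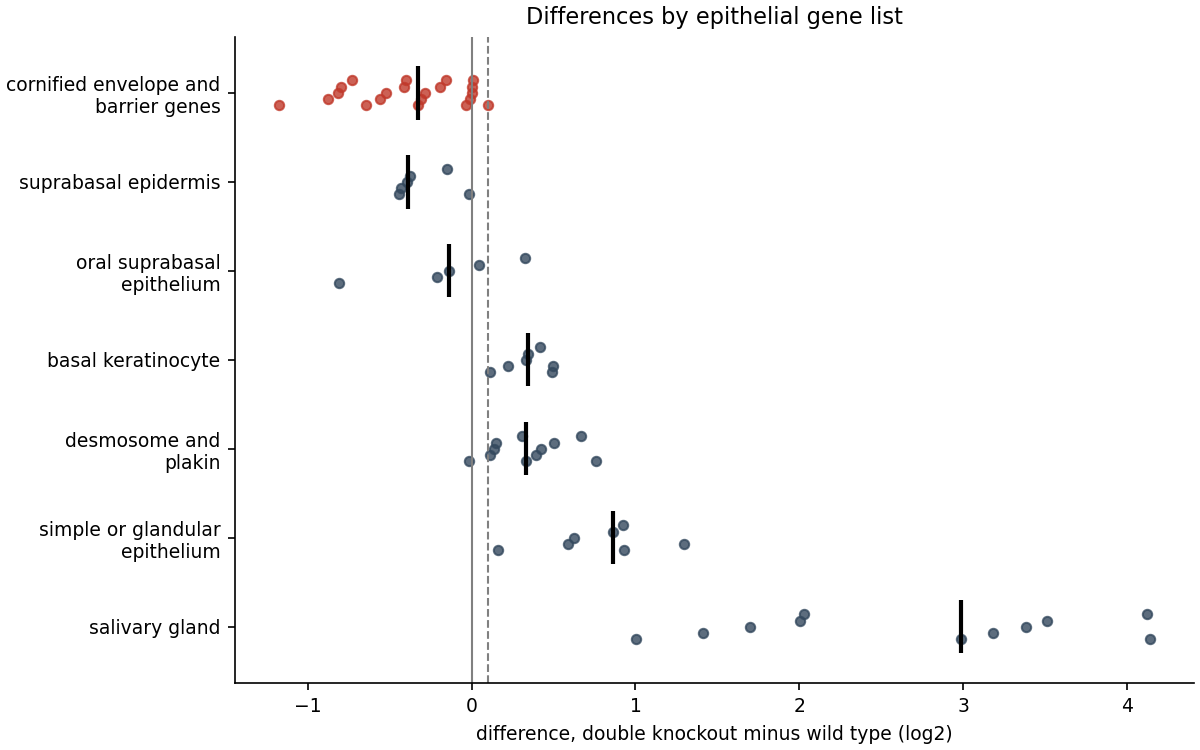
Difference (log2, double knockout minus wild type) of each measured gene (points) in the envelope and barrier set (red) and in 6 other epithelial lists, with a bar at each median, a solid line at 0 and a dashed line at the median of all measured genes; 3 salivary points are lower bounds. Envelope and suprabasal points lie mostly left of 0, basal and desmosome points mostly right of it, and salivary points between 1.003 and 4.14.

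All 7 markers of simple or glandular epithelium were higher in the double knockout, with a median of 0.87. Krt18 had 9.26 in the double knockout and 7.97 in the wild type, and its partner Krt8 had 9.96 and 9.03 in that order. The 8 salivary gland markers above the floor on both arrays were at least 2-fold higher, against 0.422% of all genes above it on both. A further 3 (Bhlha15, Car6 and Prol1) were above it only in the double knockout. The 11 had signals of 7.59 to 12.54 in the double knockout and 4.77 to 11.01 in the wild type. Bpifa2 had 12.54 in the double knockout and 9.36 in the wild type, and Dcpp1, the brightest in the wild type, had 12.01 and 11.01 in that order. Pip was 17.4-fold higher, and Prol1 at least 17.7-fold higher. The part of these markers in the lower envelope signals was not tested.

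Junction proteins and regulators that work beside the envelope genes were mostly higher in the double knockout, as were measured genes in general. In the list of desmosome and plakin genes, 10 of 11 measured members were higher in the double knockout, with a median of 0.33, none of them 2-fold. Dsg2, a desmosomal cadherin of simple and basal epithelium, had 7.45 in the double knockout and 6.69 in the wild type, and Dsc3, a basal cadherin, had 9.62 and 8.96 in that order. Plakoglobin (Jup) had 10.07 in the double knockout and 9.94 in the wild type. The exception was envoplakin (Evpl), an early envelope scaffold, at 6.51 in the double knockout and 6.53 in the wild type. Of 19 measured transcription factors of epithelial differentiation, 16 were higher in the double knockout (14 after centring on that median), with a median of 0.34. Of these, Cebpb, Elf3 and Tfap2c were above the floor only in the double knockout, and among the 16 above it on both arrays 13 were higher, against 68.4% of all such genes. Ehf, an Ets factor also made in glands, was the 1 member at least 2-fold higher, with 8.86 in the double knockout and 7.61 in the wild type. Zfp750, which promotes terminal differentiation of keratinocytes, had 8.20 in the double knockout and 7.52 in the wild type, and Maf had 10.01 and 9.46 in that order. On the lower side were Hopx (6.25 in the double knockout, 6.83 in the wild type) and Gata3 (6.19 and 6.30 in that order).

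Lists of barrier lipids and barrier proteases were mixed. Of 13 measured lipid genes 8 (61.5%) were higher and 5 lower in the double knockout, against 66.9% higher of all measured genes. Their median was 0.03, and the split turned to 5 higher and 8 lower after centring on the median of all measured genes. The glucosylceramide synthase Ugcg had 7.53 in the double knockout and 8.04 in the wild type, and the sphingomyelin synthase Sgms1 had 7.82 and 8.32 in that order. The serine palmitoyltransferase subunit Sptlc2 differed by 0.29, the lipase cofactor Abhd5 by 0.25 and the sphingomyelinase Smpd1 by -0.02. Of 13 measured proteases and inhibitors 7 (53.8%) were higher and 6 lower (6 and 7 with that centring), with a median of 0.04. Among the 10 above the floor on both arrays 7 were higher and 3 lower, against 68.4% higher of all such genes. The channel-activating protease Prss8 had 7.66 in the double knockout and 6.76 in the wild type, and its partner matriptase (St14) had 8.82 and 8.13 in that order. The kallikrein Klk14 was below the floor in the double knockout (5.81) and above it in the wild type (6.87), at least 1.603-fold lower. Cathepsin L (Ctsl) differed by -0.20 and cathepsin D (Ctsd) by 0.04.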

How the data were processed

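Biotin-labelled cRNA from 6 µg of total RNA was hybridised to 1 array per genotype, per the labels' protocols. The authors deposited 1 value per probe set, which is a log2 signal judging by its range (1.42 to 13.35). The submitters' processing notes name MAS5 without a version. Background correction, scaling between arrays, the log step and the genome build are not given in the sources used here, and the 2 arrays were compared as deposited.

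Probe sets were named from the platform annotation held by GEO: 21789 name 1 gene, 1621 several and 12147 have no entry. Symbols of all 45 genes matched RefSeq (GRCm38.p6) by identifier. Where a gene had several probe sets, the one brightest on average over both arrays was used. No direction was read where 1 side was at the floor and the 2 floors alone set the sign. All measured members are named. Of each other list, the brightest member and up to 2 with the largest differences in each direction are named. The members and lists were chosen with earlier results of these data known. The gene-level steps were tested on simulated data. Python 3.11.15, pandas 2.3.3 and Biopython 1.88 were used. Having 1 array per genotype limits the precision of every value.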

Additional observations from a re-analysis of the deposited data

Results flagged for a closer look

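Probe sets that name several genes did not enter the gene counts. One of them, which names Dsg1a, Dsg1b and Dsg1c, was above the floor and higher in the double knockout (8.68) than in the wild type (8.42), a difference of 0.26, which 2287 of the measured genes exceeded. Of the other 4 shared probe sets of the rule, 2 were above the floor. The set naming Sprr2a1, Sprr2a2, Sprr2a3 and Sprr2b had 6.53 in the double knockout and 6.88 in the wild type. The set naming 6 Lce3 genes had 7.39 in the double knockout and 7.52 in the wild type. The 2 sets that name Sprr2a1 and Sprr2a3, held the same values as each other, 5.84 in the double knockout and 6.18 in the wild type, and did not exceed the floor on either array, so no direction is read from them.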

How the results depend on the processing

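Sprr1a stayed the 1 member at least 2-fold lower, and 0 were at least 2-fold higher, under both other floors, no floor and both other scalings. Taking the median over probe sets could not change a member, since each has 1. At 1.5-fold 6 members were lower, against 5.11% of all measured genes. At 3-fold 0 were, and the share of all measured genes at 3-fold was not counted. The 17 lower members all stayed lower under both other scalings and without a floor, where 19, 19 and 18 of 21 were lower after centring on the median of all genes, after quantile normalisation and without a floor, against 49.9%, 36.7% and 32.3% of all measured genes. A floor at the 25th percentile left 31 members measured and 26 lower (35.4% of all measured genes). With it at the 75th percentile 10 were measured, 9 were lower (32.5% of all) and the median was -0.60, since fewer dim members enter. Without the Lce family, an alternative chosen after seeing the data, 13 were measured and 9 lower, with a median of -0.52. These 13 hold Aloxe3, which had no direction, and 32.2% of all measured genes were lower. Counting only members above the floor on both arrays, also chosen after seeing the data, left 16 of 19 lower with a median of -0.40. Of all genes above it on both, 30.7% were lower. Lce3c and Aloxe3 moved most, to -0.52 and -0.60 without a floor. No paired analysis was possible because each genotype has 1 array.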

Other observations

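Other genes tied to the skin barrier, outside the naming rule, differed by -0.81 (Kprp, described with the gene complex) to 0.55 (Cldn1). Of 15 measured members of the list of further envelope and epidermal complex genes, 11 (73.3%) were higher in the double knockout and 4 lower. Among all measured genes 66.9% were higher. Tchh, 1 of the 11, was above the floor only in the double knockout. Of the 14 above it on both arrays 10 (71.4%) were higher and 4 lower, against 68.4% higher of all such genes. The median of the list was 0.01. After centring on the median of all measured genes the split was 6 higher and 9 lower, and after quantile normalisation 8 and 7. The tight junction protein Cldn1 had 9.97 in the double knockout and 9.42 in the wild type, the serpin Serpinb5 differed by 0.24 and the annexin partner S100a10 by -0.21. The brightest member, S100a11, which transglutaminases join to the envelope, had 11.36 in the double knockout and 11.22 in the wild type.

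The hair follicle list, on 5 measured members, had a median of 0.13. In the double knockout 4 members were higher and 1 lower (3 and 2 after that centring), where 66.9% of all measured genes were higher. Of the 5, Tchh and Lhx2 were above the floor on 1 array only. Shh, a signal of hair and tooth buds, had 9.26 in the double knockout and 8.55 in the wild type, and Msx2 had 8.52 and 7.85 in that order. Lhx2, a factor of hair follicle stem cells, was below the floor in the double knockout (6.04) and above it in the wild type (6.52), at least 1.26-fold lower. Among hair sheath keratins Krt71 had 6.90 in the double knockout and 6.77 in the wild type, and Krt25, Krt27 and Krt73 were below the floor on both arrays.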
